A study of Mus musculus with 10 samples.

Results

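The 10 genes described here encode the main parts of MHC class I antigen presentation and the immunoproteasome: the heavy chains H2-K1 and H2-D1, their light chain B2m, the peptide transporter genes Tap1 and Tap2, the loading factor Tapbp, the immunoproteasome subunits Psmb8, Psmb9 and Psmb10, and the transcriptional regulator Nlrc5. They were taken by gene symbol from the 46956 loci with a symbol, and all 10 were found. Measured values do not enter that rule, but the set was proposed with earlier results of these data known. Their transcripts were measured by RNA sequencing in macrophages sorted from mouse mammary tumours. Tumours were grown from 4T1 cells, a mammary carcinoma line of BALB/c origin, in BALB/cJ mice, in the mammary fat pad. In the control group, 5 samples came from mice given PBS vehicle. In the treated group, 5 samples came from mice given JHU083, a prodrug of the glutamine antagonist 6-diazo-5-oxo-L-norleucine, at 1 mg/kg from day 7 to day 13. Tumours of both groups were harvested on day 14. The sort took live cells positive for CD45, CD11b and F4/80 and negative for CD8, Ly6C and Ly6G. The labels give no age or sex of the mice and do not say whether a sample is 1 mouse or a pool, so p-values measure only the spread between these samples, which may be technical. The comparison asks how treatment with the glutamine antagonist changes transcript levels in these cells.

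Class I molecules show short peptides from inside the cell to CD8+ T cells. Proteins are cut by the proteasome, peptides are carried into the endoplasmic reticulum by the TAP1-TAP2 transporter, and tapasin, the product of Tapbp, holds empty class I molecules at the transporter while peptide is loaded. The heavy chain pairs with beta-2-microglobulin, without which it does not reach the cell surface. Under interferon-gamma, cells make the subunits PSMB8, PSMB9 and PSMB10, which take the places of PSMB5, PSMB6 and PSMB7 in newly assembled proteasomes and alter which peptides are cut. NLRC5 acts on class I promoters, and IRF1 carries the interferon-gamma signal to many of the same genes. Macrophages use this machinery for their own proteins and, in part, to present engulfed antigen.

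The promoters of these genes are shown because transcripts of the transporter and immunoproteasome passed the test between the groups and those of the classical heavy chains and the light chain did not. RefSeq windows (GRCm38.p6), each from 250 bases before to 50 bases after a transcript's start, were found for 8 of the 10 genes, and those of Tap2 and Nlrc5 were not. The stretches are written 5′ to 3′ on the strand of the gene, and positions are counted from the RefSeq start. For H2-K1 (chr17:34000349-34000497, minus strand, -150 to -2), B2m (chr2:122147537-122147685, plus strand, -150 to -2) and H2-D1 (chr17:35262923-35262952, plus strand, -171 to -142), capitals mark matches to the NF-kappaB motif and to an IRF element or interferon-stimulated response element (ISRE). For Psmb8 (chr17:34198088-34198117, plus strand, -107 to -78), capitals mark a match to the gamma-activated site (GAS) motif, an element of interferon-gamma response. For Tap1 (chr17:34187370-34187399, plus strand, -186 to -157), capitals mark a GC box read on the opposite strand.
H2-K1: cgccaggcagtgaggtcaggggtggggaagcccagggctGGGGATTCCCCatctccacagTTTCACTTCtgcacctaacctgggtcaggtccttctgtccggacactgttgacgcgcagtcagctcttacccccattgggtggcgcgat
H2-D1: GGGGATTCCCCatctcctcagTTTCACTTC
B2m: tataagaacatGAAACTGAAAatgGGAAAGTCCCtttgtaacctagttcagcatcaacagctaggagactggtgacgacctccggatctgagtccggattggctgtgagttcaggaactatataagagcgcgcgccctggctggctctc
Psmb8: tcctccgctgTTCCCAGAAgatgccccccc
Tap1: gactgaggccCCGCCCcatcatcgcgcaag

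The motifs were searched on both strands as letters: the ISRE as GAAA, any 2 bases and GAAA again, GAANNGAAA for the IRF element, TTCNNNGAA for GAS, CCAAT for the CCAAT box, TGACG for the CRE half-site and GGGCGG for the GC box. The NF-kappaB motif is given by its name. Matches may overlap, and those to the GAS motif, and some to the NF-kappaB motif, read on both strands. Of 32851 promoter windows of the same length, 3.44% held an ISRE match, 7.52% an IRF element, 8.30% a GAS match and 4.51% an NF-kappaB match. CCAAT was in 37.41%, the CRE half-site in 20.81% and the GC box in 35.66%. An NF-kappaB match beside an IRF element or ISRE match, with CCAAT and CRE half-site matches nearer the start, was found in the windows of H2-K1, H2-D1 and B2m. No ISRE, IRF element or NF-kappaB match was found in the windows of Tap1, Tapbp, Psmb8, Psmb9 and Psmb10, and the Psmb10 window held 0 matches of any motif searched. Windows of constitutive subunits were searched as well. That of Psmb6 held an IRF element match (-70 to -62) with CRE half-site matches nearer the start, and no NF-kappaB match. That of Psmb5 held only a CRE half-site match. Tap1 and Psmb9 face away from each other, with 225 bases between their RefSeq starts (34187556 on the plus strand and 34187330 on the minus strand of chromosome 17). Their windows (34187306 to 34187605 and 34187281 to 34187580) therefore cover mostly the same bases. What was or was not found in the window of Tap1 is thus not separate from that of Psmb9. A match is a run of letters and not evidence of binding, and a window without one says only that these letters are not in it.

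Sequencing depth ranged from 11147723 to 15740487 fragments per library, and was higher in most JHU083 libraries. The 11 macrophage marker genes summed to 19220 to 24470 CPM (fragment counts scaled to a common library total) in vehicle and 24080 to 32110 CPM in JHU083, and 4 of them, including Adgre1 and Csf1r, were higher and Aif1 was lower in JHU083. Mitochondrial transcripts took 1.53% to 2.09% of fragments in vehicle and 2.14% to 2.44% in JHU083. In 3 vehicle and 2 JHU083 samples the loci of Rn18s-rs5 and Gm42418 had a listed value of 0, and together they took 2.87% to 5.59% of fragments elsewhere, so results were also computed within each of these sets of samples. Of 12500 loci tested with the quasi-likelihood F-test of edgeR at a Benjamini-Hochberg adjusted p under 0.05, 2296 were higher in JHU083 and 2293 lower, or 1564 and 3141 when libraries were scaled by their totals alone.

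All 10 genes passed the filter on low counts, and 7 of them were lower in JHU083 and 0 higher. Across all loci tested, 36.7% passed by the same rule, 18.3% being lower and 18.4% higher. The median log2 fold change was -0.59 over the 10 genes and 0.01 over all loci. The 7 were both transporter genes, Tapbp, the 3 immunoproteasome subunits and, by a narrow margin, Nlrc5. For Tap1, Tap2, Tapbp, Psmb8 and Psmb9 every JHU083 sample lay below every vehicle sample, a pattern found in 11.1% of all loci. The 2 heavy chains and B2m did not pass the threshold. In bulk samples, fewer cells expressing a gene and less RNA per cell cannot be told apart.

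Transcripts of other cells moved with the groups as well. All 10 tumour epithelial markers (keratins, Epcam, Cdh1, claudins and Esrp1) were lower in JHU083, with a summed level of 302 to 660 CPM in vehicle and 104 to 221 CPM in JHU083, and none was at 0 in every sample. Of 6 fibroblast markers 4 were lower (Col1a1, Col1a2, Col3a1 and Pdgfra), with sums of 98.8 to 221 and 24.7 to 112 CPM, and of 4 endothelial markers tested 1 was lower (Pecam1), with sums of 126 to 214 and 37.0 to 88.3 CPM. Pecam1 alone made up most of the endothelial sum (151 ± 32.5 and 52.5 ± 20.2 CPM, SD, n = 5), and Kdr (-0.15), Vwf (-0.01) and Cdh5 (-0.49) did not pass. Of 3 T cell markers tested, Cd4 (14.7 ± 1.37 and 31.8 ± 5.98 CPM, SD, n = 5) and Cd28 were higher in JHU083. Cd4 made up most of the summed level over 8 markers of 15.96 to 20.9 and 29.3 to 47.9 CPM, Lck did not pass (-0.29), and Cd3e, Cd3d, Cd3g, Cd8a and Cd8b1 were too low to be tested. Of 5 neutrophil markers tested, S100a8 (-1.40) and S100a9 (-2.18) were lower and Csf3r (0.53) higher, with summed levels of 91.85 to 101.9 and 95.3 to 145.7 CPM. Of 6 dendritic cell markers tested 1 was higher (Cd209a, 2.09) and 0 lower, and of 3 eosinophil markers tested 1 was higher (Siglecf, 0.89) and 0 lower. The 1 B cell marker tested, Cd79b, was higher (0.51). The summed levels in vehicle and JHU083 ran from 22.6 to 29.1 and 24.6 to 40.8 CPM for dendritic cell markers, from 3.68 to 10.6 and 6.64 to 17.4 CPM for eosinophil markers, and from 2.58 to 3.77 and 3.47 to 5.14 CPM for B cell markers. The NK cell markers summed to 12.15 to 15.9 CPM in vehicle and 7.68 to 12.5 CPM in JHU083, and the 1 tested, Klrb1c, whose locus also lists Klrb1b and Gm44511, was at -0.38 and did not pass (edgeR adjusted p = 0.0563). The part of these transcripts in the differences of the class I genes was not tested.

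**Figure D1:**
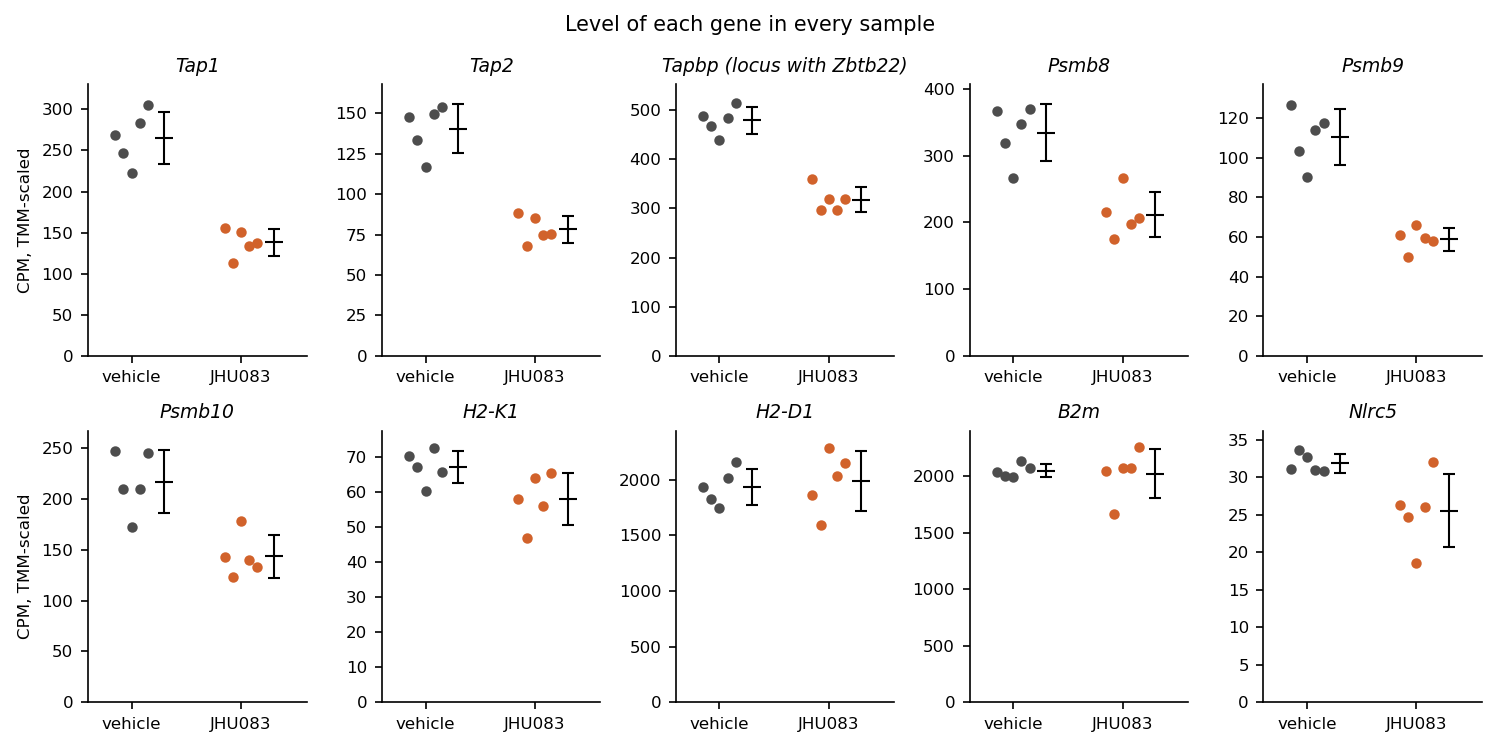
Level of each of the 10 genes in every sample, in CPM on TMM-scaled library sizes, with vehicle samples in grey, JHU083 samples in orange, and the mean ± SD of 5 samples beside each group. The groups are apart for Tap1, Tap2, Tapbp, Psmb8 and Psmb9, and overlap for the other 5 genes.

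Of the 10 genes, Tap1, a chain of the peptide transporter, had the largest log2 fold change, followed by Psmb9 and Tap2. Tap1 (XLOC_015255, chromosome 17, 34187553 to 34197225, GRCm38) had 269, 247, 222, 284 and 305 CPM in vehicle samples 1 to 5 and 156, 113, 151, 133 and 138 CPM in JHU083 samples 1 to 5. The highest JHU083 sample thus lay well under the lowest vehicle sample. Its mean of 265 ± 32.1 CPM in vehicle fell to 138 ± 16.9 CPM (SD, n = 5 each), or 0.52 times the vehicle level, and the log2 fold change was -0.94 ± 0.10 (SE, edgeR adjusted p = 1.60e-05).

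Tap2 (XLOC_015257, chromosome 17, 34203527 to 34216321), the other chain of the transporter, had 148, 133, 117, 150 and 154 CPM in vehicle and 88.6, 68.0, 85.0, 74.6 and 75.7 CPM in JHU083. As for Tap1, vehicle sample 3 was the lowest of its group and JHU083 sample 2 the lowest of all. The log2 fold change was -0.84 ± 0.09 (SE, edgeR adjusted p = 2.02e-05).

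Tapbp (XLOC_015242, chromosome 17, 33915899 to 33929292) shares its locus in the tables with Zbtb22, so its values cover both genes. They were 489, 468, 439, 485 and 515 CPM in vehicle and 359, 297, 319, 296 and 319 CPM in JHU083. The log2 fold change was -0.59 ± 0.07 (SE, edgeR adjusted p = 4.02e-05), smaller than that of the transporter genes but with the smallest standard error of the 10.

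The immunoproteasome subunits fell with the transporter. Psmb9 (XLOC_016055, chromosome 17, 34181987 to 34187764), which replaces Psmb6, had 127, 103, 90.0, 114 and 118 CPM in vehicle and 60.9, 49.8, 66.1, 59.5 and 57.8 CPM in JHU083. All JHU083 samples were below all vehicle samples, and the log2 fold change was -0.91 ± 0.10 (SE, edgeR adjusted p = 1.80e-05), close to that of its neighbour Tap1. The gene models of Psmb9 and Tap1 overlap at their 5′ ends on opposite strands in GENCODE, and the sources used here do not state that counting used the strand, so fragments from the shared bases cannot be assigned with certainty.

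Psmb8 (XLOC_015256, chromosome 17, 34197721 to 34201454), the counterpart of Psmb5, had 368, 320, 267, 348 and 370 CPM in vehicle and 215, 175, 266, 197 and 206 CPM in JHU083. The groups were apart by a small margin, since JHU083 sample 3 nearly reached vehicle sample 3. The log2 fold change was -0.66 ± 0.11 (SE, edgeR adjusted p = 0.000553).

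Psmb10 (XLOC_040456, chromosome 8, 105935735 to 105938444), the counterpart of Psmb7 and the only one of the 3 outside the MHC region, had 247, 209, 172, 210 and 245 CPM in vehicle and 143, 123, 178, 140 and 133 CPM in JHU083. JHU083 sample 3 lay above vehicle sample 3, so the groups overlapped. The log2 fold change was -0.60 ± 0.11 (SE, edgeR adjusted p = 0.00109), and among the 5 samples with Rn18s-rs5 at 0 it was -0.46 and no longer passed the threshold.

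The classical class I chains differed little. H2-D1 (XLOC_015307, chromosome 17, 35262730 to 35267499) had 1937, 1825, 1746, 2014 and 2155 CPM in vehicle and 1866, 1595, 2286, 2031 and 2151 CPM in JHU083. The JHU083 samples spanned the vehicle range, and the log2 fold change was 0.04 with a 95% interval from -0.20 to 0.27 (edgeR adjusted p = 0.814). B2m (XLOC_019643, chromosome 2, 122147686 to 122153083) had 2043, 2005, 1992, 2133 and 2075 CPM in vehicle and 2044, 1664, 2076, 2076 and 2257 CPM in JHU083. Apart from JHU083 sample 2, which was lowest, the groups lay close together, with a log2 fold change of -0.02 and an interval from -0.22 to 0.18 (edgeR adjusted p = 0.896). The direction of either gene changed when 1 JHU083 library was left out: H2-D1 was at -0.02 without sample 3, and B2m was at 0.05 without sample 2. With the correction for length and GC content they were at 0.14 and -0.17 and did not pass. Neither interval reaches the estimated differences of the transporter and immunoproteasome genes.

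H2-K1 (XLOC_016047, chromosome 17, 33996017 to 34000347) had 70.5, 67.2, 60.4, 72.6 and 65.8 CPM in vehicle and 58.2, 46.9, 64.2, 56.2 and 65.5 CPM in JHU083. Its groups overlapped, and the log2 fold change of -0.21 (95% interval -0.41 to -0.01) missed the adjusted threshold (edgeR adjusted p = 0.0945). It passed the threshold without JHU083 sample 3, at -0.24, with sample quality weights in limma, at -0.23, and with scaling by library totals, at -0.29. It was smaller, and did not pass, without JHU083 sample 2 (-0.14), with the FPKM values (-0.12 with either pseudocount) and with log2 CPM corrected for length and GC content (-0.09). H2-K1 and H2-D1 share long stretches of sequence with each other and with further class I genes. BALB/c mice carry the d haplotype of these genes while GRCm38 is built from C57BL/6, which carries the b haplotype, so levels recorded for single heavy chains are uncertain in both groups. The same strain difference is seen at H2-Ea-ps, a pseudogene in C57BL/6, which was listed at 2479 to 3876 FPKM (fragments scaled by length and library total) in these samples. The effect of the haplotype on the heavy chain counts was not tested.

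Per length, the order of the mean levels in vehicle, in FPKM, was B2m at 2924 ± 67.9, H2-D1 at 1006 ± 83.9, Psmb8 at 351 ± 43.4, Psmb10 at 268 ± 40.3, Tapbp at 186 ± 7.49, Tap1 at 93.8 ± 9.54, Psmb9 at 90.6 ± 12.5, Tap2 at 63.6 ± 8.06, H2-K1 at 47.2 ± 3.68 and Nlrc5 at 8.31 ± 1.65 (SD, n = 5). Among neighbours in this order, the samples of Psmb8 and Psmb10, of Tap1 and Psmb9, and of Tap2 and H2-K1 overlapped. In JHU083 the levels of Psmb9 (49.0 ± 4.45 FPKM), Tap1 (48.9 ± 6.47), H2-K1 (43.6 ± 5.57) and Tap2 (36.3 ± 5.32) came close together (SD, n = 5). The listed H2-K1 level was far under that of H2-D1 in both groups.

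**Figure D2:**
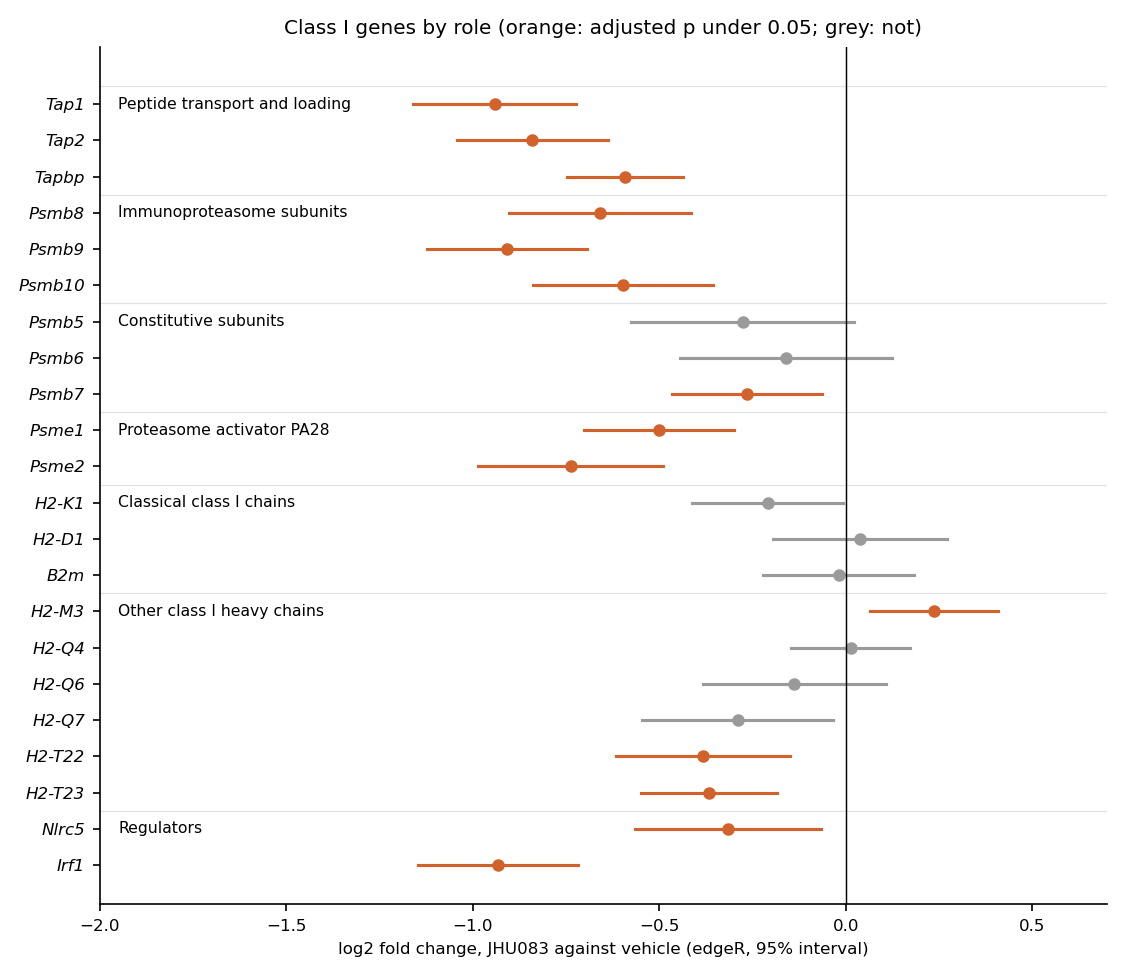
Log2 fold change of JHU083 against vehicle with its 95% interval from edgeR, for the 10 genes and related genes, ordered by role. Orange marks an adjusted p under 0.05. The transporter, immunoproteasome and PA28 genes lie between -0.94 and -0.50, and H2-D1, B2m and H2-Q4 lie near 0.

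The differences were also described relative to the light chain, as the log2 ratio of each gene to B2m within a sample, which does not depend on how libraries are scaled. These ratios were chosen with the change of each gene known, so they describe the same data again and no test of them is given. Tap1 over B2m differed by -0.92, Psmb9 by -0.88, Tap2 by -0.81, Psmb8 by -0.64, Psmb10 by -0.57 and Tapbp by -0.57 on the log2 scale. In each of these 6 ratios all JHU083 samples were below all vehicle samples, which for Psmb10 was not so in CPM. The ratio of Nlrc5 differed by -0.31, or -0.49 in the FPKM values, with a range from -0.38 to -0.19 with 1 sample left out and values of -0.52 within the samples with Rn18s-rs5 at 0 and -0.19 within the others. The ratio of H2-K1 differed by -0.19, or -0.10 in the FPKM values. That of H2-D1 differed by 0.06, and by 0.01 to 0.09 with 1 sample left out. None of these ratios was corrected for length and GC content. At 860 bases and 41.2% GC, B2m was the shortest of the 10 genes and had the lowest GC content. With that correction B2m moved from -0.02 to -0.17, Tapbp from -0.59 to -0.42 and Psmb10 from -0.60 to -0.41. The ratios of Tapbp and Psmb10 to B2m thus depend on it.

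Transcripts of the immunoproteasome subunits were set against those of the constitutive subunits they replace in 3 ratios. The make-up of assembled proteasomes was not measured. The constitutive subunits themselves had smaller differences: Psmb5 -0.28 (95% interval -0.57 to 0.02, edgeR adjusted p = 0.134), Psmb6 -0.16 (-0.44 to 0.12, adjusted p = 0.361) and Psmb7 -0.26 ± 0.09 (SE, adjusted p = 0.0398). These calls depended on single libraries and on settings. Without JHU083 sample 3, the highest sample for Psmb5 and Psmb6, these genes passed the threshold at -0.44 and -0.30. Psmb7 no longer passed in 6 of 10 fits that left out 1 sample (vehicle 1, 4 or 5, or JHU083 2, 4 or 5), where it ranged from -0.28 to -0.20. It also missed the threshold within the samples with Rn18s-rs5 at 0 (-0.08), while it passed within the others (-0.42), and missed it with Rn18s-rs5 as a covariate (-0.24) and in the FPKM values (-0.27). Psmb5 passed with library totals and with sample quality weights, at -0.36 in each. Neither Psmb5 (-0.06 and -0.45) nor Psmb6 (-0.02 and -0.24) passed within the samples with Rn18s-rs5 at 0 or within the others. Without JHU083 sample 2 they were at -0.18 and -0.08, and Psmb6 was at -0.09 with the correction for length and GC content. The Psmb5 locus also lists Mir686.

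The ratio of Psmb9 to Psmb6, in FPKM, was 0.353, 0.317, 0.297, 0.307 and 0.302 in vehicle and 0.216, 0.217, 0.158, 0.199 and 0.190 in JHU083. The groups were apart, with a log2 difference in the ratio of CPM of -0.72 (exact two-sided permutation test, p = 0.0079, adjusted over 3 ratios p = 0.0238). The ratio of Psmb8 to Psmb5 was 3.39, 3.41, 2.93, 3.63 and 3.57 in vehicle and 3.04, 3.04, 2.29, 2.52 and 2.54 in JHU083. Only vehicle sample 3 lay within the JHU083 range, and the log2 difference was -0.35 (exact permutation, adjusted p = 0.0238).

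The ratio of Psmb10 to Psmb7 was 2.06, 1.96, 1.57, 1.89 and 2.03 in vehicle and 1.36, 1.59, 1.54, 1.57 and 1.44 in JHU083. Here too vehicle sample 3 fell among the JHU083 samples, and the log2 difference was -0.32 (exact permutation, adjusted p = 0.0317). This last call was lost without vehicle sample 1, 2, 4 or 5 or JHU083 sample 1 or 5, with differences of -0.32 to -0.29. Per length, transcripts of Psmb8 and Psmb10 exceeded those of their constitutive counterparts in every sample of both groups, and Psmb9 was below Psmb6 in every sample.

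**Figure D3:**
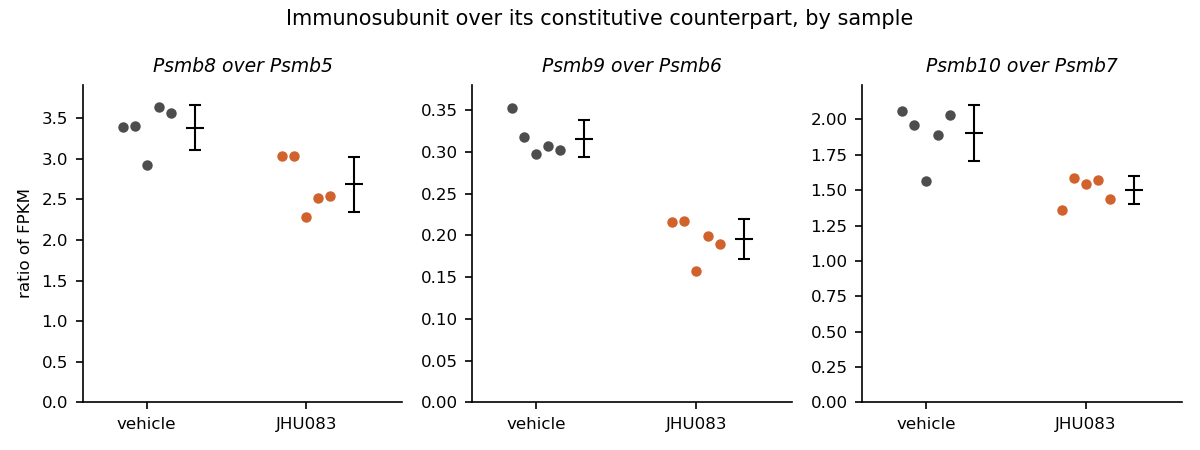
Ratio of each immunoproteasome subunit to the constitutive subunit it replaces, in FPKM, for every sample, with mean ± SD of 5 samples. Psmb9 over Psmb6 runs from 0.297 to 0.353 in vehicle and from 0.158 to 0.217 in JHU083, and vehicle sample 3 overlaps JHU083 in the other panels.

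Proteasome activators and assembly factors fell in part with the immunoproteasome. Of 10 such genes tested, 6 were lower and 0 higher, with a median log2 fold change of -0.39, where 18.3% of all loci were lower. Psme1 and Psme2 encode the subunits of PA28, the interferon-inducible cap that opens the proteasome core. Psme2 had 236, 199, 178, 215 and 232 CPM in vehicle and 131, 97.3, 158, 128 and 122 CPM in JHU083, with no overlap and a log2 fold change of -0.74 ± 0.12 (SE, edgeR adjusted p = 0.000283). Psme1 fell by 0.50 ± 0.09 on the log2 scale (SE, edgeR adjusted p = 0.00103), also without overlap. Psmg2, a chaperone of proteasome assembly, fell to 10.4 ± 0.92 CPM from 14.2 ± 1.75 CPM (SD, n = 5), and its log2 fold change was -0.45 ± 0.11 (SE, edgeR adjusted p = 0.00668). Within the 5 samples with Rn18s-rs5 at 0, Psme1 (-0.38) and Psmg2 (-0.41) missed the threshold, as did Psmg2 within the others (-0.50).

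Upstream of the transporter, cytosolic peptidases trim or destroy peptides. Of 8 tested 3 were lower and 0 higher, with a median of -0.14, where 18.3% of all loci were lower. Thop1, which encodes the peptide-degrading thimet oligopeptidase, had 50.9, 42.3, 37.9, 46.9 and 49.9 CPM in vehicle and 25.1, 24.1, 34.1, 24.9 and 26.3 CPM in JHU083. The groups did not overlap, although JHU083 sample 3 stood above the rest of its group, and the log2 fold change was -0.76 ± 0.11 (SE, edgeR adjusted p = 0.000174). The other lower genes were Blmh, the bleomycin hydrolase gene (-0.34 ± 0.09, adjusted p = 0.0107), and Ide, the insulin-degrading enzyme gene (-0.31 ± 0.09, adjusted p = 0.0181). Within the samples with Rn18s-rs5 at 0 these were -0.21 and -0.39 and did not pass. Ide also missed the threshold within the other samples (-0.30) and in the FPKM values (-0.22 and -0.19 with pseudocounts of 0.1 and 1).

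Downstream, in the endoplasmic reticulum, the differences of the genes listed besides Tapbp were small. Of 13 loading and trimming genes tested, 3 were lower and 0 higher, with a median of -0.13, and the share lower was near the 18.3% of all loci. Tapbpl encodes TAPBPR, a peptide editor related to tapasin, and fell from 47.1 ± 2.11 to 39.0 ± 3.34 CPM (SD, n = 5), by 0.27 ± 0.08 on the log2 scale (SE, edgeR adjusted p = 0.0146). Sec61g, a subunit of the translocon, was at -0.29 ± 0.09 (adjusted p = 0.0233) and Pdia3, the ERp57 gene of the loading complex, at -0.20 ± 0.07 (adjusted p = 0.0454). Left-out samples ended the Sec61g call without vehicle 1 (-0.28) or JHU083 5 (-0.27), and the Pdia3 call in 8 of 10 fits, all but those without vehicle 4 or JHU083 3 (-0.21 to -0.16). All 3 missed the threshold within the samples with Rn18s-rs5 at 0 (-0.20, -0.19 and -0.11) and within the others (-0.31, -0.38 and -0.29). Tapbpl also lost its call with the correction for length and GC content (-0.18), and Pdia3 with Rn18s-rs5 as a covariate (-0.20), with no filter (-0.20) and in the FPKM values with a pseudocount of 0.1 (-0.19). Erap1, which trims peptides to their final length, did not pass (-0.13, 95% interval -0.33 to 0.06), but passed at -0.32 when log2 CPM were corrected for length and GC content. It did not pass without JHU083 sample 3 (-0.06), with library totals (-0.21), or within the samples with Rn18s-rs5 at 0 (-0.27) or above 0 (-0.06).

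The heavy chain family as a whole was described over 29 loci of the K, D, Q, T and M series, of which 16 passed the filter. Of these 16, 5 were lower (H2-T23, H2-T22, H2-T10, H2-Q5 and H2-Q10) and 2 higher (H2-M3 and H2-M2), with a median of -0.21, where 18.3% of all loci were lower and 18.4% higher. Among those with at least 50 CPM, H2-T23, which encodes the nonclassical Qa-1, had 328, 308, 285, 343 and 351 CPM in vehicle and 258, 207, 272, 251 and 264 CPM in JHU083. Its groups did not overlap, and the log2 fold change was -0.37 ± 0.08 (SE, edgeR adjusted p = 0.00424). H2-T22, a nonclassical chain bound by some gamma-delta T cells, was at -0.38 ± 0.11 (adjusted p = 0.0138). Neither passed within the samples with Rn18s-rs5 at 0 (-0.33 and -0.35) or within the others (-0.36 and -0.33). H2-T23 passed at -0.24 with the correction for length and GC content.

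H2-M3, which presents formylated peptides, rose by 0.24 ± 0.08 on the log2 scale (SE, edgeR adjusted p = 0.0328). The other higher gene, H2-M2, had 3.68 ± 1.65 and 8.41 ± 4.16 CPM (SD, n = 5). The H2-M3 call was lost without vehicle 1, 2 or 4 or JHU083 4 or 5 (0.21 to 0.23), with scaling by library totals (0.15), with no filter (0.23), with Rn18s-rs5 as a covariate (0.22), and within the samples with Rn18s-rs5 at 0 (0.16) or above 0 (0.27). H2-Q4 (0.01), H2-Q6 (-0.14) and H2-Q7 (-0.29) did not pass, with 95% intervals from -0.15 to 0.17, from -0.38 to 0.11 and from -0.54 to -0.04. H2-Q4 was at -0.07 with scaling by library totals. H2-Q6 ran from -0.23 without JHU083 5 to -0.04 without JHU083 2, and was at -0.22 with library totals, -0.07 within the samples with Rn18s-rs5 above 0, -0.08 in the FPKM values and close to 0 with the correction for length and GC content, passing in none of these. H2-Q7 passed with that scaling (-0.37), with no filter (-0.29) and without JHU083 3 (-0.32) or 5 (-0.37). Fragments may be shared among all of these genes, which limits the value of each.

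A sum over the family does not depend on how counted fragments were divided among its loci, though fragments that were not counted at all stay out of it. The summed heavy chain level was 3140, 3050, 2902, 3292 and 3446 CPM in vehicle and 2961, 2488, 3400, 3149 and 3354 CPM in JHU083. The groups overlapped, and the log2 difference of -0.05 did not pass (exact two-sided permutation test, p = 0.667). Without JHU083 sample 2, the lowest, it was 0.02. With scaling by library totals the difference was -0.13 and did not pass either (exact permutation p = 0.119). The sum without H2-K1 and H2-D1 was 1163 ± 52.3 CPM for vehicle against 1027 ± 108 CPM for JHU083 (SD, n = 5), a log2 difference of -0.19 (exact permutation p = 0.0238), and that of H2-K1 and H2-D1 alone differed by 0.02 (exact permutation p = 0.81).

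Nlrc5 (XLOC_039260, chromosome 8, 94434356 to 94527272), the class I regulator, had the lowest level of the 10 genes. It had 31.1, 33.7, 32.7, 30.9 and 30.8 CPM in vehicle and 26.3, 24.7, 18.6, 26.0 and 32.1 CPM in JHU083. Of the JHU083 samples, 4 lay below every vehicle sample and sample 5 lay within the vehicle range. The log2 fold change of -0.32 ± 0.12 (SE) passed narrowly (edgeR adjusted p = 0.0462). The call was lost in each of the 9 fits that left out a sample other than JHU083 5, with values from -0.33 without vehicle 4 to -0.22 without JHU083 3. It was also lost within the samples with Rn18s-rs5 at 0 (-0.50) and within the others (-0.22). In the FPKM values it was kept, at -0.51 and -0.45 with pseudocounts of 0.1 and 1, and there JHU083 sample 1, not sample 5, lay within the vehicle range.

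Among 19 other regulators of class I genes tested, 4 were lower and 1 higher, with a median of -0.03. The share that passed was below the 36.7% of all loci, and the share lower was near the 18.3%. The lower genes were Irf1, Irf7 and Stat2 of interferon signalling, and Ezh2, a Polycomb enzyme. Irf1 had 177, 204, 157, 182 and 188 CPM in vehicle and 118, 87.7, 81.1, 92.5 and 96.4 CPM in JHU083. The groups were far apart, with a log2 fold change of -0.93 ± 0.10 (SE, edgeR adjusted p = 1.58e-05), similar in size to that of Tap1. Stat2, which acts below the type I interferon receptor, fell to 58.2 ± 6.10 CPM from 79.6 ± 7.16 CPM (SD, n = 5), by 0.45 ± 0.09 on the log2 scale (SE, edgeR adjusted p = 0.00155), and was at -0.28 and did not pass within the samples with Rn18s-rs5 above 0. Irf7, a regulator of type I interferon genes, fell by 0.94 ± 0.13 (SE, edgeR adjusted p = 8.85e-05). Factors of the RFX and NF-kappaB kind (Rfx5, Rfxap, Rfxank, Nfkb1, Rela and Relb) had log2 fold changes between -0.27 and 0.03 that did not pass, and Ciita, the class II regulator, was at 0.07 (edgeR adjusted p = 0.631). The higher gene was Nfya, a CCAAT-binding subunit, at 0.33 ± 0.07 (SE, edgeR adjusted p = 0.00184).

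Of 11 receptors, kinases and inhibitors of interferon signalling tested, 4 were higher (Ifngr1, Ifnar2, Jak1 and Ptpn2) and 2 lower (Socs1 and Ptpn6), with a median of 0.11, where 36.7% of all loci passed. Ifngr1, the ligand-binding chain of the interferon-gamma receptor, had 103, 100.1, 98.0, 99.8 and 109 CPM in vehicle and 161, 156, 131, 150.1 and 138 CPM in JHU083, with no overlap and a log2 fold change of 0.53 ± 0.07 (SE, edgeR adjusted p = 0.000103). Jak1, the kinase bound to both interferon receptor types, rose by 0.40 ± 0.08 (SE, edgeR adjusted p = 0.00133), and was at 0.34 and did not pass within the samples with Rn18s-rs5 at 0. Socs1, an inhibitor of JAK kinases that interferon itself induces, had 14.9, 20.6, 18.9, 17.1 and 19.8 CPM in vehicle and 6.96, 4.25, 7.75, 9.56 and 7.33 CPM in JHU083. Its log2 fold change of -1.35 ± 0.17 (SE, edgeR adjusted p = 5.17e-05) was larger in size than that of any of the 10 class I genes.

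**Figure D4:**
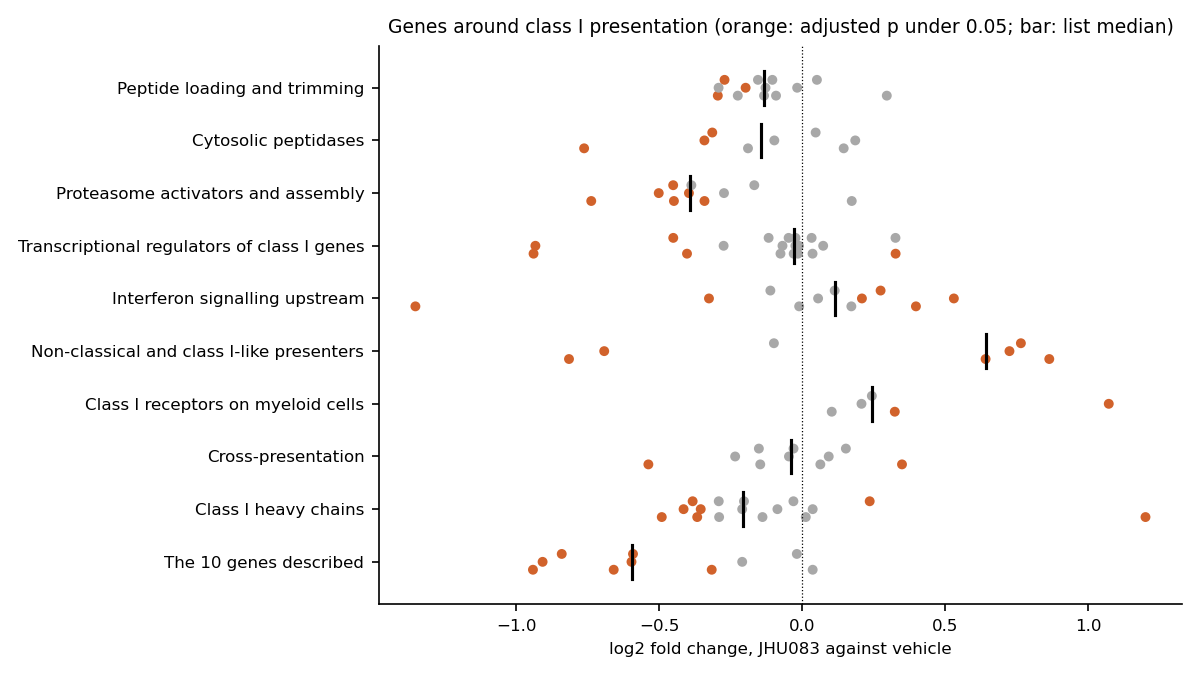
Log2 fold change of JHU083 against vehicle for each tested gene of the lists around class I presentation, with the list's median as a bar. Orange marks an edgeR adjusted p under 0.05. The median is -0.59 for the 10 genes, -0.39 for activators and assembly factors and 0.64 for class I-like presenters.

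Within a group, many of the 10 genes were lowest in the same sample. In vehicle, sample 3 had the lowest CPM of its group for 9 of the 10 genes, the exception being Nlrc5. In JHU083, sample 2 was lowest for 8 of the 10, the exceptions being Tapbp and Nlrc5. The mean deviation over the 10 genes from each gene's mean over all samples ran from 0.07 (sample 3) to 0.35 (sample 5) in vehicle and from -0.47 (sample 2) to -0.15 (sample 3) in JHU083, in log2 CPM. Vehicle sample 3 and JHU083 sample 2 also had the highest shares of Rn18s-rs5 and Gm42418 of their groups, 5.59% and 5.48% of fragments; the part of this in their levels was not tested.

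The loci whose pattern over the 10 samples was nearest to the mean pattern of the 10 genes were Pdia6, Psme1, Anp32e, Rbm8a and Atp13a1. Their root mean square distance from it was 0.05 to 0.06 in log2 CPM, and their log2 fold changes lay between -0.59 and -0.50. Of the 10 genes themselves, Tapbp was nearest to the mean pattern, at 0.09, and H2-D1, B2m and Nlrc5 were farthest, at 0.28, 0.25 and 0.24. This likeness rests on the difference between groups and on the same 10 libraries.

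**Figure D5:**
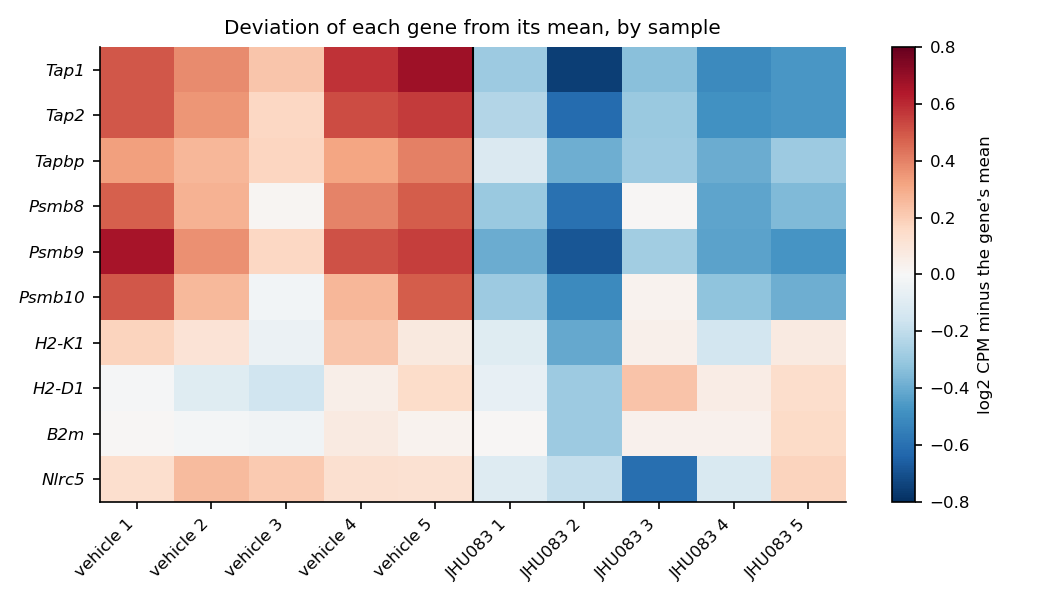
Deviation of each gene's log2 CPM from its mean over the 10 samples, with vehicle samples left and JHU083 samples right of the line. The transporter and immunoproteasome genes are above their mean in vehicle and below it in JHU083, apart from Psmb8 and Psmb10 in vehicle 3 and JHU083 3, which lie near 0, and H2-D1 and B2m lie on both sides of their mean in each group.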

How the data were processed

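RNA of sorted tumour-associated macrophages was sequenced from 5 vehicle and 5 JHU083 samples. Per the labels' protocols, poly(A) RNA was randomly primed and made into paired-end libraries. The submitters' processing notes name TopHat2 2.1.1, bcl2fastq 2.17.1.14, FastQC 0.11.2 and GRCm38; the counting program, its annotation and its use of strand are not given in the sources used here. The authors' deposited count column, named as raw per the file headers, holds scaled, expected counts: in each sample 99.5% to 99.87% of positive values were whole within 0.05 after division by a sample-specific step (0.888 to 1.17), which gave the fragment counts used. The second deposited column was read as FPKM, from its values. Rows with no symbol (at most 0.0021% of fragments) were left out.

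Counts were filtered with filterByExpr, scaled by TMM and compared in edgeR 4.0.16 (R 4.3.3) by its quasi-likelihood F-test, adjusted over 12500 loci; CPM use TMM-scaled library sizes, and log2 CPM a prior count of 2. Coordinates are from GENCODE for GRCm38, matched by symbol. Overlapping or antisense gene models were found for Tap1, Tap2, Tapbp, Psmb8, Psmb9, Psmb10, Nlrc5 and B2m. Ratios between subunits and the heavy chain sum were compared by exact two-sided permutation of 252 labelled splits in Python 3.11.15 with scipy 1.17.1. The smallest p this allows is 0.0079. Tested on simulated counts for this comparison (12360 and 12366 loci), edgeR recovered 39.0% of loci changed by 0.5 and 95.0% of those changed by 1 on the log2 scale.

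The 10 genes and all lists were chosen with earlier results of these data known. Named from each list are the 3 tested genes with the largest change among those that passed, the heavy chains with at least 50 CPM, and Irf1, Ifngr1, Erap1, Psme1 and Psme2 whatever their values; a gene of the lists is not reported here and is left out of their counts, and further genes that complete a count, Ciita and the RFX and NF-kappaB genes were named after their values were seen. The ratios to B2m were added after the data were seen and are given without a test. Alternatives were DESeq2 1.42.0, limma 3.58.1 with voom, other scaling and filters, FPKM with pseudocounts of 0.1 and 1, log2 CPM corrected for length and GC content (mgcv 1.9.3), sets of samples by Rn18s-rs5, the replicate number as a block, and leaving out each sample.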

Additional observations from a re-analysis of the deposited data

Results flagged for a closer look

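Of 102 groups of 5 samples examined, 1 had a sample far from the rest, where about 5.1 would be by chance, since 1 in 20 groups passes this rule by chance. JHU083 sample 3 had 5.09 log2 CPM of Thop1, the thimet oligopeptidase gene, against 4.59 to 4.72 in the other JHU083 samples, a gap of 0.74 of the group's range.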

How the results depend on the processing

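Tap1, Tap2, Tapbp, Psmb8 and Psmb9 kept their direction and their side of the threshold in every fit run, with log2 fold changes from -1.02 to -0.83, -0.92 to -0.68, -0.67 to -0.42, -0.75 to -0.52 and -0.99 to -0.80. Between 5 and 8 of the 10 genes were lower across all alternatives, and 6 or 7 with 1 sample left out. Corrected for length and GC content, which was done on 12190 of 12500 loci, Tapbp and Psmb10 were at -0.42 and -0.41. The self-test limits what is seen of smaller changes.

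Same-numbered samples did not deviate together (correlations of -0.61 to -0.18 over 1000 loci), so the numbers gave no reason to pair. With the replicate block, 6 of the 10 genes were lower, Nlrc5 (-0.33) losing its call, and 1612 loci were higher and 1757 lower. The subunit ratios were then the same, -0.354, -0.723 and -0.321, and lost their calls in a sign-flip permutation that cannot give an exact p under 0.0625. H2-M3 (0.23), Psmb7 (-0.27), Sec61g (-0.30), Pdia3 (-0.20) and Tapbpl (-0.27) also lost theirs with the block.

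Within samples with Rn18s-rs5 at 0, 531 loci were higher and 585 lower, and within the others 1276 were higher; fewer samples were compared. With 1 sample left out, Psmb10 over Psmb7 ran from -0.386 to -0.290 and the summed heavy chains from -0.0897 to 0.0230. That sum was -0.186 (now past the threshold) without H2-K1 and H2-D1 and 0.022 for these alone. Direction changed for H2-D1 (-0.046 with library totals, -0.016 to 0.107 with 1 sample left out), B2m (-0.057 to 0.045) and H2-Q4 (-0.070 with library totals, -0.010 with Rn18s-rs5 at 0, -0.017 to 0.067 with 1 left out). Causes were not tested.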

Other observations

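Molecules built like class I chains but outside peptide presentation to CD8+ T cells were also measured. Of 7 tested, 4 were higher (Hfe, Mr1, Cd1d1 and Fcgrt) and 2 lower (Procr and the locus of H60b, Raet1d and Raet1e) in JHU083, with a median log2 fold change of 0.64, where 36.7% of all loci passed. Hfe, which encodes a regulator of iron uptake that pairs with beta-2-microglobulin, rose from 114 ± 15.8 to 207 ± 27.9 CPM (SD, n = 5), by 0.86 ± 0.11 on the log2 scale (SE, edgeR adjusted p = 4.78e-05). Mr1, which presents vitamin B metabolites, rose from 15.6 ± 2.72 to 26.5 ± 5.57 CPM (SD, n = 5), by 0.76 ± 0.16 (SE, edgeR adjusted p = 0.00186), and was at 0.37 and no longer passed within the samples with Rn18s-rs5 at 0. That last locus, whose genes encode ligands of the NKG2D receptor, fell from 6.37 ± 1.28 to 3.62 ± 1.138 CPM (SD, n = 5), by 0.81 ± 0.22 (SE, edgeR adjusted p = 0.00963), and was at -0.48 within the same samples, where it did not pass.

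Of 5 receptors of the leukocyte immunoglobulin-like family tested, some of which bind class I molecules, 2 were higher and 0 lower, with a median of 0.24, where 18.4% of all loci were higher. Lilra5 rose from 29.6 ± 3.91 to 62.3 ± 15.1 CPM (SD, n = 5), by 1.07 ± 0.15 (SE, edgeR adjusted p = 0.000108). The locus of Lilrb4a and Lilr4b was at 0.32 ± 0.08 (SE, edgeR adjusted p = 0.00768), and did not pass when corrected for length and GC content (0.17) or within the samples with Rn18s-rs5 at 0 (0.23) or above 0 (0.38). Of 10 genes linked to cross-presentation of engulfed antigen, 1 was higher and 1 lower, with a median of -0.04: Cybb, the NADPH oxidase subunit gene, at 0.35 ± 0.08 (SE, edgeR adjusted p = 0.00485), and the locus of Rab27a and Gm27186 at -0.54 ± 0.12 (SE, edgeR adjusted p = 0.00316). Neither passed within the samples with Rn18s-rs5 at 0, at 0.32 and -0.46, and Cybb did not within the others, at 0.36. Cybb passed at 0.19 with the correction for length and GC content. Background over all loci was 18.4% higher and 18.3% lower.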
